A study of Mus musculus with 30 samples.

Results

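The 41 genes described here are interferon-stimulated antiviral and signalling genes, taken by name from all 26084 gene symbols of the study. All 41 are listed in both of its experiments. They comprise 17 antiviral effectors, 4 sensors of foreign nucleic acid, 5 transcription factors, 6 genes of ISG15, ubiquitin or ADP-ribose transfer, 2 chemokines and 7 others. Interferons are secreted proteins that put cells into an antiviral state. Type I interferons bind the receptor of IFNAR1 and IFNAR2 and act through JAK kinases on a complex that contains STAT2 and IRF9 and binds interferon-stimulated response elements. Interferon-gamma binds IFNGR1 and IFNGR2 and acts mainly through gamma-activated sites. The genes they switch on include the effectors that cut, edit or trap viral RNA and protein, the sensors and factors that amplify the signal, and the inhibitors SOCS1 and USP18, which damp it.

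The cells were IDG-SW3, a mouse line known for passing from late osteoblast to osteocyte in culture. As background, it came from mice carrying a temperature-sensitive T antigen under an interferon-inducible promoter, so it is expanded with interferon and matured without it. Every culture was expanded at 33 °C with 50 U/mL interferon-gamma, and then differentiated at 37 °C in ascorbic acid and beta-glycerol phosphate with no interferon-gamma. In the first experiment untreated cells were harvested on day 3, on day 7 and then weekly from day 14 to day 35. In the second, cells of day 3 or day 35 received ethanol vehicle or 100 nM 1,25(OH)2D3 (calcitriol, the active vitamin D hormone) for 24 h before harvest. Each group held 3 libraries, which the series calls biological triplicates, and n = 3 per group below unless libraries are left out or a single sequencing run is described. All groups shared the earlier interferon-gamma, and no group was kept in it. Days of differentiation and days since interferon-gamma therefore cannot be told apart.

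Untreated levels are in RPKM, reads normalized to transcript length and library size. Levels of the hormone experiment are in CPM, counts scaled to library totals adjusted by TMM factors, which even out differences in RNA composition between libraries. The experiments used different library kits, so only changes are set side by side. Log2 changes are given ± SE, and a gene counts as called where its adjusted p, over all genes tested, is below 0.05. Ribosomal RNA rows made up 72.6% to 88.9% of the summed RPKM, and the count libraries held 22062866 to 54325515 reads. Bone cell markers were present, and their summed level was 124 to 160.2 RPKM at day 3 and 467 to 801 RPKM at day 35. Of the osteocyte markers, Sost was 0 up to day 21, Pdpn was 0 at day 35, and Dmp1 and Phex were below 1 RPKM in each of the 18 untreated libraries. The markers of B and T cells, plasmacytoid dendritic cells and endothelial cells summed to at most 0.321 RPKM in any untreated library. Of 10 macrophage and myeloid markers, Emr1 and Tyrobp were 0 in every untreated library. Their sum was 9.55 to 11.0 RPKM at day 3 and 1.35 to 1.82 RPKM at day 35, most of it Cd14. Its part in the results was not tested.

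Promoters are shown first because the members moved together. RefSeq (GRCm38.p6) gave windows from 250 bases before to 50 bases after the start for 31 of the 41 members. The core of the interferon-stimulated response element was searched on both strands as GAAA, any 2 bases, GAAA. The core of the gamma-activated site was searched likewise as TTC, any 3 bases, GAA. The first was found in 14 of the 31 members (45.2%) and in 3.99% of the 27025 symbols with a window. The second was found in 9 of the 31 members (29.0%) and in 9.55% of all symbols. Both were found in 4 members (12.9%) and in 0.614% of all symbols, and in Bst2 and Ifitm3 a match of one overlapped a match of the other. A match describes letters and is not a binding site. The 180 bases before the start follow for 5 members that the hormone raised at day 35 and for Socs1, which it lowered, with matches to the first core in capitals (a match on the other strand reads TTTC, any 2 bases, TTTC). In Isg15, Oas1a and Socs1 the matches share letters, and both matches of Ifit1 and of Ifit3 read TTTC first. Coordinates are GRCm38.p6.
Rsad2 (chr12:26456453-26456632, minus strand): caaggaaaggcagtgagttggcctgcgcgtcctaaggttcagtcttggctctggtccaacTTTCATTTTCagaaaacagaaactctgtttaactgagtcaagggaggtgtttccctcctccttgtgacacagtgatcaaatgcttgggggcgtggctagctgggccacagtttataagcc
Isg15 (chr4:156200819-156200998, minus strand): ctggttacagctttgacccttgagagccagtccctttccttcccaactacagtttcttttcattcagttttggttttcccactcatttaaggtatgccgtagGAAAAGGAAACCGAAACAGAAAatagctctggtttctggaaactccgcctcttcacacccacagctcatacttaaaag
Ifit1 (chr19:34640709-34640888, plus strand): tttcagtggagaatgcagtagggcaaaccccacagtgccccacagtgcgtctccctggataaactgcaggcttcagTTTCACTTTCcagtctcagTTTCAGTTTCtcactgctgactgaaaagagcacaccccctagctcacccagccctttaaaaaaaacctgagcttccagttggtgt
Ifit3 (chr19:34583349-34583528, plus strand): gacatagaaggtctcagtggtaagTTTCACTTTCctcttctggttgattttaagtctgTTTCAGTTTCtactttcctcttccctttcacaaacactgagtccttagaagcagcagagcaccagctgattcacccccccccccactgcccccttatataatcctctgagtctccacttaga
Oas1a (chr5:120907526-120907705, minus strand): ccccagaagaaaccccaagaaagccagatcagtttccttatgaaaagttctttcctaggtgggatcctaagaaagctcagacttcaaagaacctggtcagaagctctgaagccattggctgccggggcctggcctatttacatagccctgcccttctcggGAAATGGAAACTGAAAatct
Socs1 (chr16:10785537-10785716, minus strand): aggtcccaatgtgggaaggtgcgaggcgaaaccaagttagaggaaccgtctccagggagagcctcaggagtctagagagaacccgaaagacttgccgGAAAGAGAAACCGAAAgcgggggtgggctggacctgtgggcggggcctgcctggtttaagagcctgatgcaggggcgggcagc

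At untreated day 3 the members ranged from Isg15, the most abundant in each library, to Cxcl10, listed at 0. Isg15, the ubiquitin-like protein that is joined to other proteins after interferon, held 549, 787 and 819 RPKM. Next came Samd9l, an antiviral and growth-restraining protein, with 62, 74.5 and 83.5 RPKM, and Lgals3bp, a secreted glycoprotein, with 71.6, 68.5 and 70.4 RPKM. Bst2 (tetherin), which holds budding virus on the cell surface, and Ifitm3, which blocks virus entry, held 34.2 ± 4.98 and 22.5 ± 0.954 RPKM (SD). Ifitm3, Ifi27l2a (21.6 ± 10.1 RPKM) and Rtp4 (19.1 ± 5.23 RPKM) followed each other by less than the spread of Ifi27l2a. Among the transcription factors, Irf7 and Irf9 were highest, with 15.5 ± 2.17 and 10.7 ± 1.15 RPKM, then Stat2 with 4.72 ± 0.583 RPKM, and Irf1 held 1.54 ± 0.342 RPKM. The sensors were Ddx58 (RIG-I) with 8.04 ± 0.928 RPKM, Zbp1 with 4.79 ± 0.283, Dhx58 with 2.09 ± 0.286 and Ifih1 with 1.57 ± 0.0108. Of the 41 members, 32 reached 1 RPKM in at least 3 libraries and were tested. The other 9 were Ifit2, Oas1a, Oas2, Oas3, Oasl1, Irf8, Parp9, Cxcl10 and Ifi35, described after the tests.

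Day 7 was the peak for most of these genes, in medium without interferon-gamma. The mean RPKM was highest on day 7 in 27 of the 32 tested members and on day 3 in the other 5, which were Rsad2, Ifit3, Cxcl9, Xaf1 and Socs1. With limma 9 members were called higher and 0 lower, where 15.8% of the 9933 genes tested were called higher and 9.84% lower. At an unadjusted p below 0.05 the members numbered 14 and 0. The median change of the members was 0.50, and that of all genes was 0.23. In bulk RNA, more or fewer cells of a kind and more or less RNA per cell cannot be told apart.

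Usp18, which removes ISG15 and restrains the type I receptor, had the largest rise. It was at 3.51, 3.3 and 3.23 RPKM on day 3 and at 12.5, 10.9 and 9.59 RPKM on day 7, so the days did not overlap (log2 change 1.57 ± 0.32, adjusted p = 0.00149). Rtp4, a receptor transporter protein, went from 13.9, 18.9 and 24.4 to 45.4, 49.2 and 54.7 RPKM (log2 change 1.39 ± 0.44, adjusted p = 0.0247). Dtx3l, a ubiquitin ligase partner of Parp9, went from 5.72, 3.57 and 4.07 to 13.6, 9.64 and 10.6 RPKM (log2 change 1.26 ± 0.33, adjusted p = 0.00847). All 3 were thus higher in each day 7 library than in any day 3 library. Oasl2, of the oligoadenylate synthase family, went from 5.32, 6.09 and 7.03 to 13.4, 11.1 and 14.8 RPKM (log2 change 1.03 ± 0.29, adjusted p = 0.0132). Irf9, the DNA-binding partner of STAT2, went from 9.47, 10.7 and 11.8 to 21.1, 21.7 and 22.4 RPKM (log2 change 1.00 ± 0.28, adjusted p = 0.0139). The remaining called members were the sensors Dhx58 (0.87) and Zbp1 (0.86), the nucleotide kinase Cmpk2 (0.69) and the double-stranded RNA kinase Eif2ak2 (0.65). Cmpk2 reached 1 RPKM in the day 7 libraries only (1.683 to 1.805), with at most 0.979 RPKM on day 3. It was tested only because it was high on day 7, so its rise is no separate support for the peak.

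Several abundant members lay above day 3 on day 7 without passing the test. Isg15 had 1151, 1161 and 1168 RPKM on day 7, above each day 3 library (log2 change 0.71 ± 0.39, adjusted p = 0.184). Irf7, the factor that amplifies type I interferon, went from 13.5, 15.1 and 17.8 to 35.4, 28.3 and 25.4 RPKM with an adjusted p of 0.0828. A fit with a replicate block called it (adjusted p = 0.0415), and also Ifi44 (0.0427) and Samd9l (0.0422), with 20.4% of all genes called higher. Stat2 (log2 change 0.66 ± 0.31, adjusted p = 0.12), Ifitm3 (log2 change 0.55 ± 0.32, adjusted p = 0.206) and Adar, the RNA-editing deaminase (log2 change 0.51 ± 0.32, adjusted p = 0.253), were likewise higher in each day 7 library. Cxcl9, a chemokine typical of interferon-gamma, had 2.78, 7.91 and 9.4 RPKM on day 3 and 1.42, 6.37 and 6.08 RPKM on day 7, which overlapped (log2 change -0.55 ± 0.47, adjusted p = 0.408). Replicate 1 of every day shared a sequencing run, per the file names, and within that run 28 of the 32 members were higher on day 7, with a median log2 difference of 0.731. All genes were not counted within that run. Leaving out single libraries gave 4 to 7 calls, 4 without day 3 replicate 1 and 5 without day 3 replicate 2 or day 7 replicate 3. Usp18, Dtx3l and Dhx58 kept their call in each of these 6 omissions. Eif2ak2 lost it in all 6 (adjusted p 0.0528 to 0.0908), Rtp4 in 4 (0.0598 to 0.104), Oasl2 and Zbp1 in 2 each and Irf9 in 1, and Cmpk2 lost it in the 3 in which it passed the minimum.

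**Figure D1:**
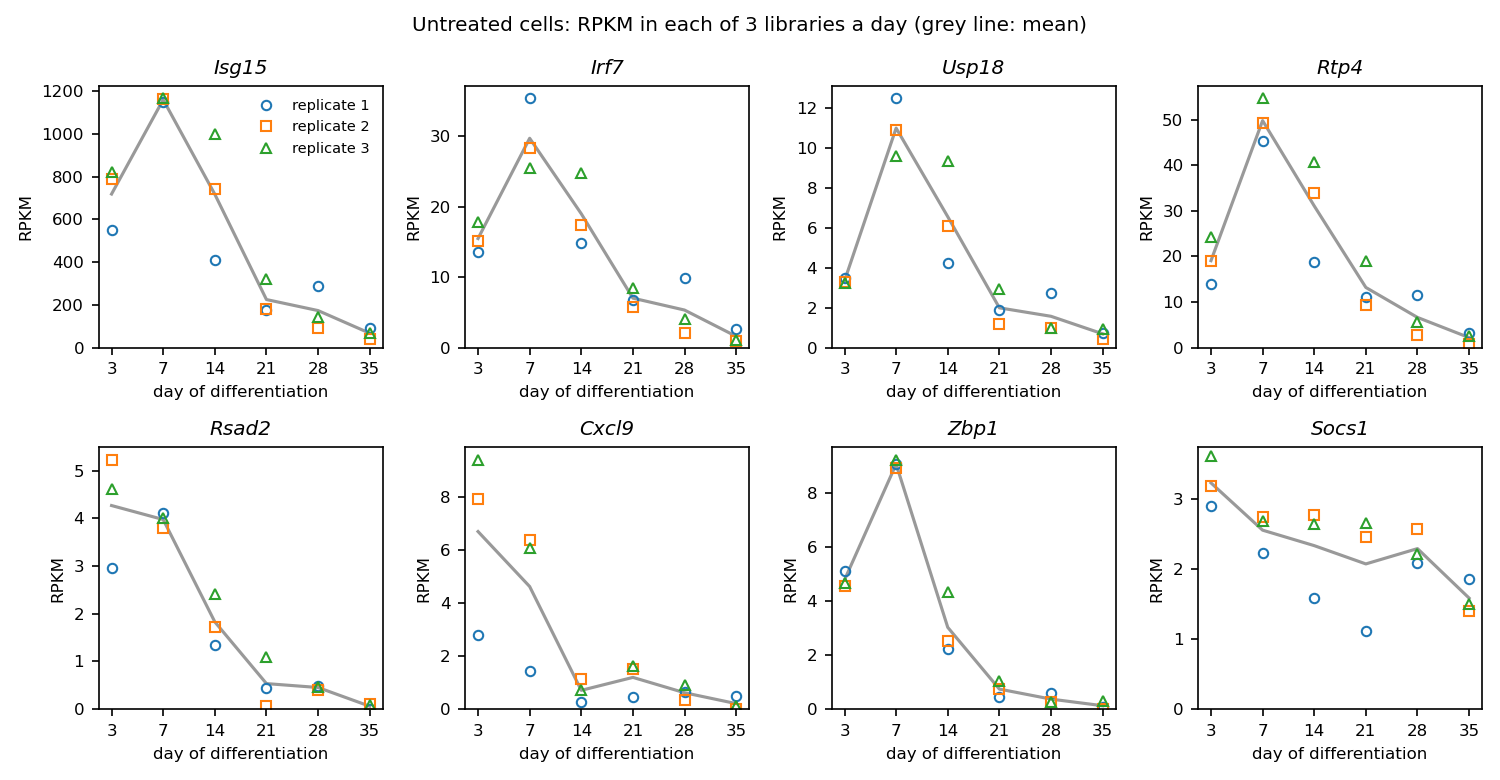
RPKM (vertical axis, linear) of 8 members on the 6 untreated days (horizontal axis), with 1 symbol per library and replicate and a grey line through the daily means. Usp18 and Rtp4 peaked on day 7, Rsad2 and Cxcl9 did not, and Socs1 fell least by day 35.

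By day 14 limma called 5 of the 32 members lower than on day 3 and 0 higher, and 7 and 2 at an unadjusted p below 0.05. Of all genes 15.3% and 14.4% were called, so the members' share of lower calls was near the background. Cxcl9 fell most, to 0.275, 1.13 and 0.718 RPKM, below each day 3 library (log2 change -2.49 ± 0.47, adjusted p = 0.000523). Ifi27l2a, a small hydrophobic interferon-induced protein, went from 33.2, 15.2 and 16.3 to 5.76, 7.67 and 9.82 RPKM (log2 change -1.36 ± 0.34, adjusted p = 0.00485). Rsad2 (viperin), the enzyme that makes a chain-terminating nucleotide, went from 2.96, 5.22 and 4.62 to 1.35, 1.73 and 2.41 RPKM (log2 change -1.03 ± 0.29, adjusted p = 0.01). The other 2 were Ifit3, of the family that binds foreign RNA (log2 change -0.88 ± 0.25, adjusted p = 0.0107), and Xaf1, a partner of an apoptosis inhibitor (log2 change -0.87 ± 0.31, adjusted p = 0.0393). Of these 5, 4 had their highest mean on day 3 and Ifi27l2a had it on day 7. When each library was centred on its own median, 3 members were called higher and 8 lower at day 14 (22.3% and 18.7% of all genes). The replicate block called 2 members higher (17.4%). Leaving out day 3 replicate 1 or replicate 2 left 3 members called lower. Xaf1 lost its call in all 6 omissions (adjusted p 0.0541 to 0.124), Ifit3 in 2 and Rsad2 in 1.

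The fall then spread to nearly all tested members. Limma called 20 lower than day 3 on day 21 (24.1% of all genes) and 30 on day 28 (31.2%), with median changes of -0.99 and -1.33 where all genes had -0.09 and -0.28. After centring, the counts were 18 (21.6%) and 26 (21.9%), and 26.8% and 28.7% of all genes were higher where 12.9% and 10.4% had been. The first day on which a member was called lower was day 14 for 5, day 21 for 15, day 28 for 10 and day 35 for 2. Those last 2 were Irf9 and Socs1, the inhibitor of JAK kinases. Zbp1, a sensor of left-handed nucleic acid, was called lower in both steps after day 7, with 9.08, 8.94 and 9.24 RPKM on day 7, 2.23, 2.52 and 4.34 on day 14 and 0.431, 0.751 and 1.04 on day 21. The log2 changes were -1.49 ± 0.25 (adjusted p = 0.0013) and -1.49 ± 0.25 (adjusted p = 0.00639). Isg15 had 411, 742 and 999 RPKM on day 14 and 177, 179 and 319 on day 21, with no overlap. That step had an adjusted p of 0.0614 without and 0.0214 with the replicate block.

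The members that had dropped furthest by day 21 and day 28 were Rsad2, Ifi27l2a, Zbp1, Xaf1 and Cxcl9, and Ifit1 at day 28. Rsad2 was at 0.449, 0.066 and 1.09 RPKM on day 21 and 0.482, 0.407 and 0.468 on day 28 (-2.30 and -2.29 against day 3). Xaf1 went from 5.96, 5.27 and 6.62 RPKM on day 3 to 1.24, 0.608 and 1.32 on day 21 and 1.68, 0.462 and 0.483 on day 28 (-2.08 and -2.33). Both were below each day 3 library on both days. Ifi27l2a had 2.77, 4.71 and 4.15 RPKM on day 21 and 5.59, 2.09 and 2.28 on day 28 (-2.27 and -2.55), and Cxcl9 0.466, 1.5 and 1.62 and 0.626, 0.333 and 0.892 RPKM (-2.02 and -2.57). Ifit1, which binds foreign RNA ends, went from 2.98, 3.63 and 3.94 RPKM on day 3 to 0.789, 0.091 and 0.204 on day 28 (log2 change -2.30 ± 0.30, adjusted p = 4.9e-06).

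**Figure D2:**
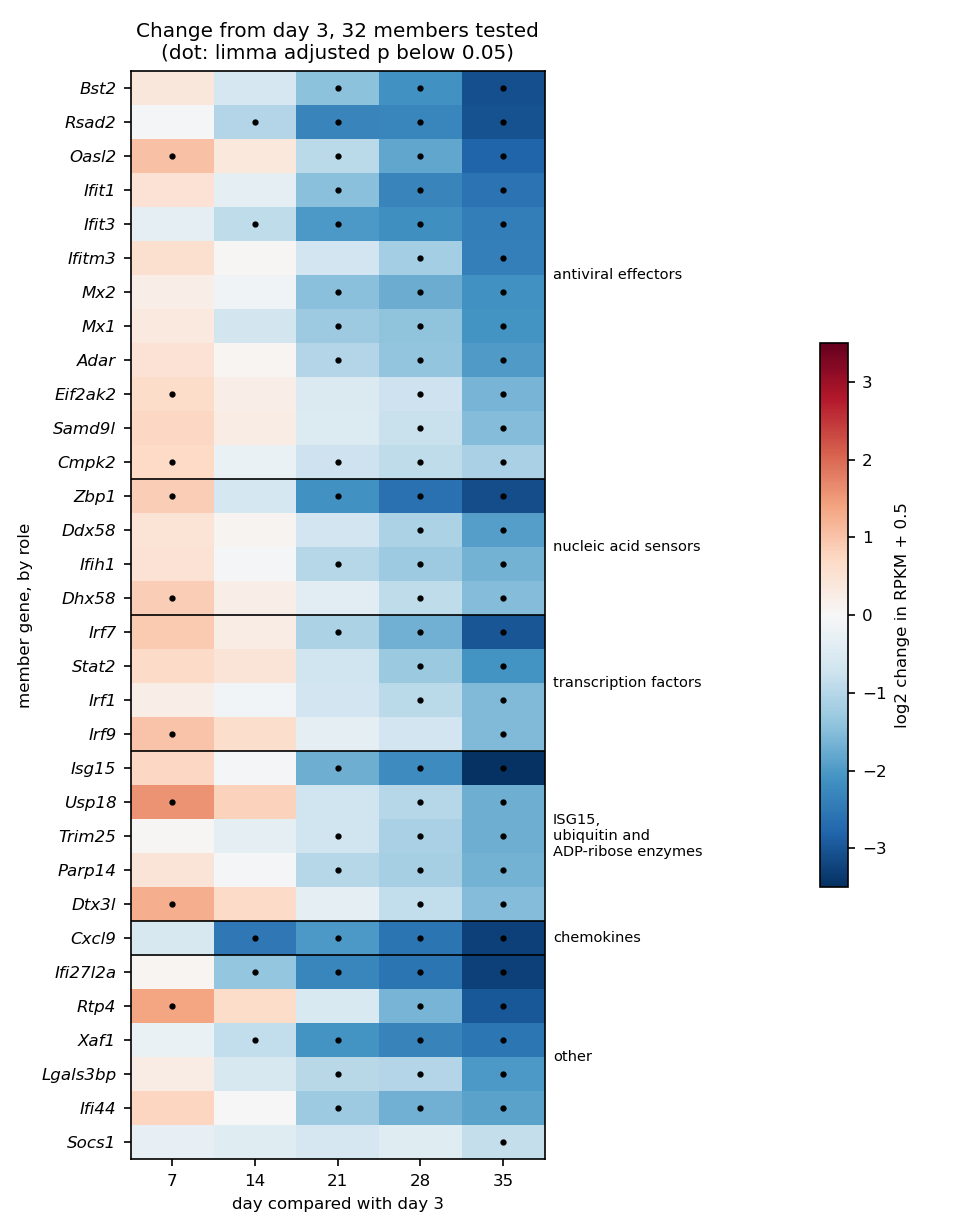
Log2 change in RPKM + 0.5 of the 32 tested members (rows, ordered by role) on days 7 to 35 (columns) against day 3, red for higher and blue for lower, with a dot where limma's adjusted p was below 0.05. Dotted cells are red on day 7 only, and the day 35 column is blue with a dot in each of 32 rows.

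At day 35 each of the 32 tested members was called lower than at day 3. Over all genes 51.5% were called lower and 5.63% higher. After centring these shares were 21.5% and 29.5%, and 30 of the 32 members were called lower. Cmpk2 and Socs1 lost their calls there. The median change of the members was -2.05 against -0.69 for all genes. Between 1.41% and 49.1% of the mean day 3 RPKM was left (median 12.1%). Replicates 2 and 3 of day 35 were alone in a sequencing run. With the run as a covariate the day 35 change therefore rests on replicate 1. In that fit the median change of all genes was -0.40. Within the run of the replicates 1, the median change of the members at day 35 was -1.71. All 32 stayed called when any single library of either day was left out.

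Among the 12 tested antiviral effectors, Rsad2 had the least left, at 0, 0.097 and 0.084 RPKM or 1.41% of day 3 (log2 change -3.06 ± 0.29, adjusted p = 3.9e-08). Bst2 went from 28.4, 37.1 and 36.9 to 5.85, 3.34 and 2.3 RPKM (log2 change -3.07 ± 0.33, adjusted p = 2.0e-07). Ifitm3 went from 21.9, 23.6 and 22 to 6.53, 3.43 and 2.55 RPKM (log2 change -2.39 ± 0.32, adjusted p = 3.1e-06). Both were thus below any day 3 library, and Bst2 kept 11.2% and Ifitm3 18.6%. Mx1, a dynamin-like GTPase, went from 1.9, 2.16 and 2.54 to 0.194, 0.078 and 0.136 RPKM (log2 change -2.08 ± 0.26, adjusted p = 1.4e-06). Samd9l kept the highest level, 31.3, 23.6 and 20.9 RPKM, which was 34.5% of day 3 (log2 change -1.53 ± 0.27, adjusted p = 8.9e-05). Adar went from 12.9, 12.1 and 13 to 3.92, 2.48 and 2.37 RPKM (log2 change -1.97 ± 0.32, adjusted p = 3.6e-05). Of the remaining effectors, Oasl2, Ifit1, Ifit3 and Mx2 changed by -2.79, -2.59, -2.43 and -2.13, and Eif2ak2 and Cmpk2 by -1.62 and -1.14.

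The sensors and factors fell as well. Zbp1 went from 5.11, 4.57 and 4.69 to 0.077, 0 and 0.297 RPKM, leaving 2.6% (log2 change -3.11 ± 0.25, adjusted p = 6.3e-09). Ddx58 went from 7.07, 8.13 and 8.91 to 2.51, 1.46 and 1.42 RPKM (log2 change -1.92 ± 0.31, adjusted p = 3.3e-05). The other RNA helicases Ifih1 (MDA5) and Dhx58 (LGP2) changed by -1.65 and -1.51. Irf7 was the factor that fell most, from 13.5, 15.1 and 17.8 to 2.66, 0.995 and 1.14 RPKM (log2 change -3.01 ± 0.38, adjusted p = 1.6e-06). Stat2 went from 5.34, 4.18 and 4.63 to 1.46, 0.55 and 0.381 RPKM (log2 change -2.09 ± 0.31, adjusted p = 1.0e-05). Irf9 kept 32.6% of its day 3 level, with 5, 2.8 and 2.62 RPKM (log2 change -1.53 ± 0.28, adjusted p = 0.000116). Irf1, an early target of interferon-gamma, went from 1.75, 1.14 and 1.72 to 0.19, 0.325 and 0.067 RPKM (log2 change -1.56 ± 0.26, adjusted p = 4.4e-05).

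Isg15 had the largest log2 fall of the 32 tested members, from 549, 787 and 819 RPKM on day 3 to 92.8, 42 and 67.2 on day 35, and 9.37% was left (log2 change -3.46 ± 0.39, adjusted p = 4.0e-07). This ranking is on log2(RPKM + 0.5), which understates falls of low genes. Smaller shares were left of several lower members, among them Rsad2 (1.41%), Zbp1 (2.6%) and Cxcl9 (3.08%). Isg15 was still the most abundant member on day 35. Usp18 went from 3.51, 3.3 and 3.23 to 0.729, 0.427 and 0.912 RPKM (log2 change -1.72 ± 0.32, adjusted p = 0.000155). The ubiquitin and ADP-ribose genes Trim25, Dtx3l and Parp14 changed by -1.71, -1.53 and -1.66, with 20.0%, 29.2% and 6.95% left. Cxcl9 ended at 0.498, 0 and 0.121 RPKM (log2 change -3.26 ± 0.47, adjusted p = 8.8e-06). Ifi27l2a ended at 1.56, 1.73 and 1.68 RPKM (log2 change -3.26 ± 0.34, adjusted p = 1.5e-07) and Rtp4 at 3.29, 0.771 and 2.51 RPKM (log2 change -2.97 ± 0.44, adjusted p = 1.0e-05). Xaf1, Lgals3bp and Ifi44 changed by -2.53, -2.01 and -1.86. Socs1 fell least, from 2.9, 3.19 and 3.62 to 1.86, 1.4 and 1.51 RPKM, and 49.1% was left (log2 change -0.84 ± 0.25, adjusted p = 0.00672).

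Between neighbouring days the calls were fewer. From day 7 to day 14 limma called 5 members lower (2.44% of all genes), which were Mx1, Cmpk2, Zbp1, Cxcl9 and Ifi27l2a, and 1 to 3 with a library left out. Mx1 lost its call in each of those 6 omissions, and Cmpk2 was tested only because it reached 1 RPKM on day 7. Cxcl9 changed by -1.94 ± 0.47, Ifi27l2a by -1.41 ± 0.34, Mx1 by -0.96 ± 0.26 and Cmpk2 by -0.93 ± 0.23, from 1.76, 1.8 and 1.68 RPKM on day 7 to 0.468, 0.639 and 0.977 on day 14. From day 14 to day 21 it called 8 lower (0.362%), which were Ifit3, Rsad2, Mx2, Oasl2, Zbp1, Usp18, Parp14 and Ifi44. Usp18 went from 4.23, 6.11 and 9.34 RPKM on day 14 to 1.89, 1.16 and 2.93 on day 21 (log2 change -1.50 ± 0.32, adjusted p = 0.0321). Oasl2 went from 6.09, 8.37 and 10.0 to 2.47, 2.76 and 3.81 RPKM (log2 change -1.29 ± 0.29, adjusted p = 0.0395), and Mx2, a relative of Mx1, from 1.26, 2.51 and 3.14 to 0.275, 0.442 and 1.13 RPKM (log2 change -1.34 ± 0.28, adjusted p = 0.0301). Ifi44 went from 9.23, 11.2 and 12.2 to 4.09, 3.66 and 4.67 RPKM (log2 change -1.29 ± 0.29, adjusted p = 0.0389). The days did not overlap in any of these. The replicate block called 15 (0.906%). The step kept 1 call without day 14 replicate 2 or 3 or day 21 replicate 2, and 2 were called without day 21 replicate 1. From day 21 to day 28 it called 0 members in either direction (0.826% of all genes higher and 0.413% lower), and 0 and 5 at an unadjusted p below 0.05. From day 28 to day 35 it called 4 lower (7.83%), which were Irf7 (-1.32 ± 0.38), Ifitm3 (-1.20 ± 0.32), Oasl2 (-0.98 ± 0.29) and Eif2ak2 (-0.88 ± 0.20), and 0 after centring (2.04%). Irf7 had 9.9, 2.03 and 4.04 RPKM on day 28, where replicate 1 was far above the other two.

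Day 28 replicate 1 stood apart, being the highest of its day in 37 of the 40 members with a value above 0. Without it that last step held 0 calls, and 15 when day 28 replicate 2 was left out instead. It held 2 when day 28 replicate 3 was omitted, and 14, 1 and 0 with omission of day 35 replicates 1, 2 and 3 in turn. All-gene numbers are not given for these omissions, so swings of the members and of whole libraries cannot be told apart. Replicates 2 and 3 of day 35 were alone in a sequencing run. Within the run that held replicates 2 and 3 of days 14, 21 and 28, 31 of the 32 members were lower on day 21 than on day 14 and 32 lower on day 28 than on day 21. Within the run of the replicates 1, with 1 library a day, 29 were lower on day 21 than on day 14, but 25 were higher on day 28 than on day 21 (median 0.177 on the log2 scale). The members thus went opposite ways in the 2 runs between day 21 and day 28. Ribosomal RNA rows went from 80.4% to 78.1% of the summed RPKM between these days in replicate 1. They went from 80.7% to 84.0% in replicate 2 and from 80.1% to 80.4% in replicate 3. All genes were not counted within a run, and the part of such library-wide differences was not tested.

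The 9 members under the test's minimum were low throughout. Cxcl10, a chemokine that draws T cells, was listed at 0 in all 18 libraries, although the count files of the second experiment hold reads for it. Oas1a, an oligoadenylate synthase that activates RNase L, was at 0.8, 0.577 and 0.452 RPKM on day 3, 0.631, 0.977 and 1.02 on day 7 and 0, 0.143 and 0.042 on day 35. Its relative Oas2 had 0.396, 0.819 and 0.386 RPKM on day 3, 1.22, 1.21 and 0.918 on day 7 and 0.085, 0.024 and 0.041 on day 35, with each day 7 library above any day 3 library. Oas3 ended at 0 in each day 35 library after 0.401, 0.46 and 0.265 RPKM on day 3. Parp9 had 0.815, 0.783 and 0.963 RPKM on day 3 and 0.076, 0 and 0.018 on day 35, with no overlap. Irf8, a factor best known from myeloid and B cells, had 0.346, 0.533 and 0.462 RPKM on day 3 and at most 0.172 RPKM in any later library. Oasl1, Ifi35 and Ifit2 were at most 1.08 RPKM in any library.

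Genes around the members moved in part with them. Of 19 genes of receptors and signalling, 15 were tested. At day 35 limma called 12 lower and 0 higher, the same numbers as at an unadjusted p below 0.05. In this comparison 51.5% of all genes were called lower and 5.63% higher. The median change was -1.36 for the 15 genes and -0.69 for all genes. Ifnar1, the type I receptor chain, was 3.06, 2.8 and 4.01 RPKM on day 3 and 0.937, 0.652 and 0.259 on day 35 (log2 change -1.80 ± 0.27, adjusted p = 1.2e-05). Ifngr1, the interferon-gamma receptor chain, was 3.48, 7.01 and 6.35 RPKM on day 3 and 5.1, 7.59 and 3.36 on day 35, which overlapped (log2 change -0.08 ± 0.36, adjusted p = 0.867). All 11 tested genes of class I antigen presentation were called lower at day 35, among them Tap1, a peptide transporter (log2 change -3.59 ± 0.31, adjusted p = 1.4e-08), and B2m, the light chain (log2 change -2.31 ± 0.27, adjusted p = 7.1e-07). On day 7 limma called 1 gene of that list lower, Nlrc5, and 0 higher, where 9.84% and 15.8% of all genes were called. The numbers were the same at an unadjusted p below 0.05. Among the interferon genes, Ifng was listed at 0 in all 18 libraries and Ifnb1 was at most 0.409 RPKM.

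The hormone experiment repeated the comparison of day 35 with day 3 in vehicle-treated cells, by counts. With edgeR's quasi-likelihood test 38 of the 41 members were called lower and 0 higher (39 and 0 at an unadjusted p below 0.05, and 39 and 0 with DESeq2, which called 16.2% of all genes lower), where 14.5% of the 20055 genes tested were lower and 15.5% higher. The median change was -2.83 for the members and 0.17 for all genes. The 3 not called were Adar, Irf9 and Socs1. The call of Trim25 was lost without vehicle day 3 replicate 2 or vehicle day 35 replicate 2 or 3 (adjusted p 0.0528 to 0.122). The other 37 were called in each omission of a library.

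The largest falls were those of Ifi27l2a, Zbp1, Cxcl10, Cxcl9 and Rsad2. Ifi27l2a went from 164, 78.1 and 106 CPM at day 3 to 1.14, 1.19 and 0.736 CPM at day 35 (log2 change -6.80 ± 0.34, adjusted p = 2.1e-09). Rsad2 went from 71.3, 61.3 and 76.7 to 2.49, 2.6 and 2.74 CPM (log2 change -4.74 ± 0.19, adjusted p = 2.7e-10). Both were far below any day 3 library. The chemokines fell below 1 CPM, Cxcl10 from 6.61, 19.6 and 9.77 to 0.468, 0.0361 and 0.0409 CPM (log2 change -5.91 ± 0.96, adjusted p = 0.000214) and Cxcl9 from 2.63, 7.67 and 5.23 to 0.292, 0.108 and 0.0409 CPM (log2 change -5.04 ± 1.01, adjusted p = 0.00134). The background estimated from olfactory receptor genes would by itself give 111% of the 14 reads of Cxcl9 in vehicle cells at day 35 and 32.7% of the 18 reads of Cxcl10, so the size of these falls is uncertain. Zbp1 went from 11.3, 23.1 and 10.9 to 0.0877, 0.253 and 0.245 CPM (log2 change -6.30 ± 0.83, adjusted p = 3.3e-05), with background at 25.9% of its day 35 reads. Among the rest, Irf7 went from 14.3, 29 and 17.7 to 1.84, 1.26 and 1.06 CPM (log2 change -3.86 ± 0.31, adjusted p = 2.3e-07), Isg15 from 49.2, 90.2 and 46.8 to 4.8, 7.83 and 8.58 CPM (log2 change -3.14 ± 0.30, adjusted p = 1.1e-06) and Ifit1 from 338, 353 and 328 to 36.8, 34.4 and 26.8 CPM (log2 change -3.38 ± 0.16, adjusted p = 1.8e-09). Mx1 changed by -4.37, Oas1a by -3.52, Usp18 by -2.33, Ifitm3 by -2.42 and Stat2 by -1.93. Oas2, Oas3, Oasl1, Ifit2, Parp9, Irf8 and Ifi35, too low to test in untreated cells, were called lower here, by -3.97, -3.81, -3.84, -2.46, -2.37, -1.57 and -1.85. At vehicle day 35 background would give 57.6% of the 44 reads of Oas3. It would give 27.9% of the 41 of Oasl1 and 22.6% of the 92 of Oas2. The sizes of the falls of Oas2, Oas3 and Oasl1 are therefore uncertain too. In the others it was at most 8.9%. Socs1 had 4.73, 6.65 and 4.11 CPM at day 3 and 3.22, 3.36 and 2.7 CPM at day 35, which did not overlap but was not called (log2 change -0.74 ± 0.37, adjusted p = 0.151).

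Adar, Ifih1, Irf1, Irf9 and Zbp1 have several rows in the files, and such symbols held few counts. Among symbols at 5 RPKM or more at untreated day 3, the median vehicle day 3 level was 63.6 CPM for 2925 symbols with 1 row and 2.01 CPM for 566 with several. The means of these 5 members were 0.755 to 15.1 CPM, and those of the 36 with 1 row 4.79 to 488 CPM. How reads of such symbols were counted is not given in the sources used here. Irf9 had 1.05, 1.33 and 1.1 CPM at day 3 and 0.0585, 0.289 and 0.695 CPM at day 35 (log2 change -1.75 ± 0.72, adjusted p = 0.0818). Adar had 1.54, 0.383 and 0.344 CPM at day 3 and 0.643, 0.613 and 0.327 CPM at day 35 (log2 change -0.51 ± 1.29, adjusted p = 0.807).

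**Figure D3:**
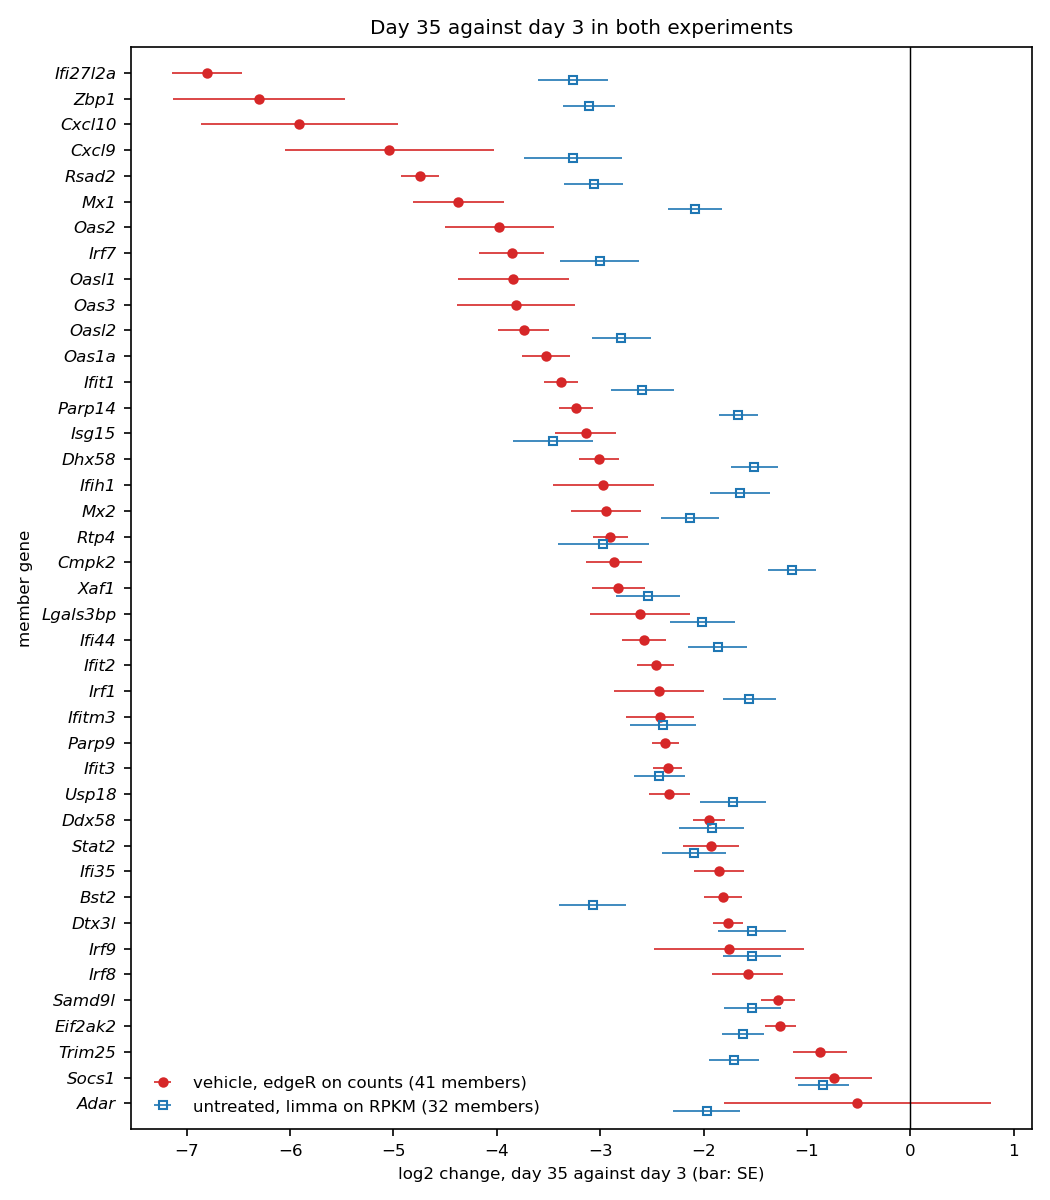
Log2 change from day 3 to day 35 (horizontal axis, bars SE) of each member (rows), in vehicle-treated cells by edgeR (filled circles, 41 members) and in untreated cells by limma on log2(RPKM + 0.5) (open squares, 32 members). Each point lies below 0, and the change closest to 0 is that of Adar in vehicle cells, -0.51.

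At day 3 the hormone moved few members. EdgeR called 1 higher and 2 lower of 41, where 11.4% and 9.09% of all genes were called. The median change was -0.17 for the members and 0.26 for all genes. Rsad2 fell, from 71.3, 61.3 and 76.7 CPM with vehicle to 30.2, 29.4 and 31.6 CPM with hormone, without overlap (log2 change -1.20 ± 0.16, adjusted p = 0.000139). This call held in each omission of a library. Ifi44, an interferon-induced protein of unsettled function, had 100.2, 186 and 124.5 CPM with vehicle and 104, 82.5 and 73.8 CPM with hormone, which overlapped (log2 change -0.66 ± 0.20, adjusted p = 0.0366). It was not called without vehicle replicate 2 or hormone replicate 2 or 3 (adjusted p 0.0914 to 0.123). Dtx3l rose from 166, 146 and 176 to 239.7, 248 and 225 CPM (log2 change 0.55 ± 0.14, adjusted p = 0.0169), and lost its call without vehicle replicate 2 or hormone replicate 2 (adjusted p 0.0577 and 0.0659).

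The libraries of this contrast differed in background. Reads on olfactory receptors, genes of the nose with no known role in bone, made up 0.0512% to 0.0751% of the hormone day 3 libraries and 0.00408% to 0.00562% of the vehicle ones. With library totals in place of TMM scaling 7 members were called higher and 1 lower (21.1% and 2.96% of all genes). With DESeq2 the numbers were 2 and 3 (19.0% and 7.95%), and with the background subtracted per kilobase 4 and 1 (8.41% and 8.36%). Without vehicle replicate 1 or 3 the members called lower numbered 6 and 5 (all-gene numbers of these omissions not given). Changes lay above 0 in 13 of the 41 members and below it in 28, and above it in 4 of the 5 transcription factors. Among those not called, Oas1a had 94.7, 89.2 and 77.1 CPM with vehicle and 60.8, 59 and 64.9 CPM with hormone (log2 change -0.50 ± 0.21, adjusted p = 0.0938). Isg15 had 49.2, 90.2 and 46.8 and 53.2, 32.8 and 37.9 CPM (log2 change -0.59 ± 0.27, adjusted p = 0.12), Cxcl10 6.61, 19.6 and 9.77 and 4.37, 3.99 and 4.31 CPM (log2 change -1.51 ± 0.74, adjusted p = 0.145), and Usp18 38.6, 28.8 and 34.1 and 28.4, 33.1 and 40.7 CPM (log2 change 0.01 ± 0.19, adjusted p = 0.972). Irf9, not called either, had the largest rise, from 1.05 to 1.33 CPM with vehicle to 2.38 to 2.75 CPM with hormone (log2 change 1.13). Background would give 36.2% of its 254 reads with hormone. Irf1 (2.96 to 4.63 and 4.58 to 6.34 CPM) and Stat2 (65.4 to 149 and 101 to 175 CPM) overlapped. Adar held only 95 reads with vehicle and 11 with hormone (log2 change -2.80, not called). Vehicle day 3 replicate 2 was the highest vehicle library in 22 of the 41 members, among them Isg15 and Cxcl10.

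At day 35, where vehicle cells held little of these transcripts, the hormone raised a part of the group. EdgeR called 11 of 41 members higher and 1 lower, where 2.41% and 2.14% of all genes were called. The median change was 0.55 for the members and 0.02 for all genes. DESeq2 called 18 higher (5.52% of all genes with its adjusted p). In the same contrast the bone cell markers summed to 20600 to 26460 CPM with vehicle and 10840 to 13600 CPM with hormone. Most of this was Ibsp (means 14272 and 5452 CPM) and Col1a1 (7525 and 5316 CPM). The 9 markers were mixed, with 1 higher and 5 lower at an unadjusted p below 0.05. The means of Dmp1 (182 and 254 CPM) and Pdpn (59.8 and 85.2 CPM) were higher with hormone. The part of the bone cell markers in these results was not tested. Of the 11, 6 were antiviral effectors, 1 was a sensor, 2 belonged to the ISG15 and ubiquitin genes and 2 to the others, and 0 of the 5 transcription factors and 0 of the 2 chemokines were called. At an unadjusted p below 0.05, 1 transcription factor and 0 chemokines passed.

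Rsad2 and Ifi27l2a rose most. Rsad2 went from 2.49, 2.6 and 2.74 CPM with vehicle to 16.6, 22.6 and 23 CPM with hormone, 7.95-fold (log2 change 2.99 ± 0.18, adjusted p = 1.8e-07). Ifi27l2a went from 1.14, 1.19 and 0.736 to 8.88, 6.43 and 9.28 CPM, 7.93-fold (log2 change 2.99 ± 0.31, adjusted p = 2.3e-05). In both, the lowest hormone library was several times the highest vehicle library. Rtp4 went from 6.43, 6.82 and 5.76 to 18.7, 15.9 and 17.8 CPM (log2 change 1.46 ± 0.16, adjusted p = 4.3e-05). Oasl2 went from 10.4, 11.6 and 8.58 to 23.2, 19.5 and 26.3 CPM (log2 change 1.17 ± 0.23, adjusted p = 0.00556). Usp18 went from 5.7, 8.12 and 6.38 to 16.1, 15 and 13.1 CPM (log2 change 1.13 ± 0.20, adjusted p = 0.00239). These 3 rose by 2 to 3 times with no overlap between groups. Isg15 went from 4.8, 7.83 and 8.58 to 13.8, 17.3 and 15.3 CPM (log2 change 1.13 ± 0.28, adjusted p = 0.0292). The RNA-binding proteins Ifit3 and Ifit1 went from 55.6, 63.6 and 63.9 to 141, 125.3 and 119 CPM (log2 change 1.07 ± 0.13, adjusted p = 0.000157) and from 36.8, 34.4 and 26.8 to 80.3, 60.3 and 64 CPM (log2 change 1.06 ± 0.15, adjusted p = 0.000461). Oas1a went from 5.88, 10.0 and 6.78 to 16.7, 10.6 and 17.6 CPM (log2 change 0.99 ± 0.22, adjusted p = 0.0143). Ddx58 and Eif2ak2 rose least, by 0.65 ± 0.15 (adjusted p = 0.0187) and 0.55 ± 0.15 (adjusted p = 0.0481).

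Of these calls, those of Rsad2, Ifi27l2a, Rtp4, Oasl2, Usp18, Ifit3 and Ifit1 held in each of the 6 omissions of a library. Isg15 lost its call without vehicle replicate 1 or 2 or hormone replicate 2 or 3 (adjusted p 0.0544 to 0.126). Oas1a lost it without vehicle replicate 1 or 3 or hormone replicate 3 (0.063 to 0.0709), and Ddx58 without vehicle replicate 2 or 3 or hormone replicate 1 or 3 (0.0538 to 0.0808). Eif2ak2 lost it in 5 of 6 omissions (0.0637 to 0.161), all but that of hormone replicate 2. Hormone day 35 replicate 2 held 0.0436% olfactory receptor reads, where the other day 35 libraries held 0.00281% to 0.0153%. With that background subtracted 13 members were called higher (4.77% of all genes).

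Socs1 went the other way. It had 3.22, 3.36 and 2.7 CPM with vehicle and 1.31, 0.758 and 0.869 CPM with hormone, without overlap (log2 change -1.65 ± 0.39, adjusted p = 0.0214). Its counts were low, and the call was lost in 5 of 6 omissions, all but that of hormone replicate 1 (adjusted p 0.0592 to 0.11), and with the background subtracted. Among the transcription factors, Irf7 had 1.84, 1.26 and 1.06 CPM with vehicle and 3.21, 2.43 and 2.44 CPM with hormone, higher in each library but not called (log2 change 0.94 ± 0.30, adjusted p = 0.107). Stat2 had 31.1, 24.9 and 26.7 and 24.7, 20.9 and 26.9 CPM, which overlapped (log2 change -0.19 ± 0.26, adjusted p = 0.828), and Irf1 and Irf9 overlapped as well (0.60 and 0.51). Mx1 had 0.906, 0.794 and 0.817 and 1.49, 2.46 and 0.551 CPM (log2 change 0.81 ± 0.42, adjusted p = 0.424), and Ifitm3 41.4, 30.6 and 27.3 and 36.1, 35.5 and 56.6 CPM (log2 change 0.37 ± 0.31, adjusted p = 0.703). Of the abundant members, Samd9l had 204, 193 and 205 and 289.7, 251 and 263 CPM (log2 change 0.42 ± 0.16, adjusted p = 0.221) and Lgals3bp 30.5, 15.3 and 15.5 and 12.9, 13.2 and 20.1 CPM (log2 change -0.41 ± 0.46, adjusted p = 0.782). Cxcl9 and Cxcl10 were below 1 CPM in each day 35 library, with 0 in hormone replicate 3.

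**Figure D4:**
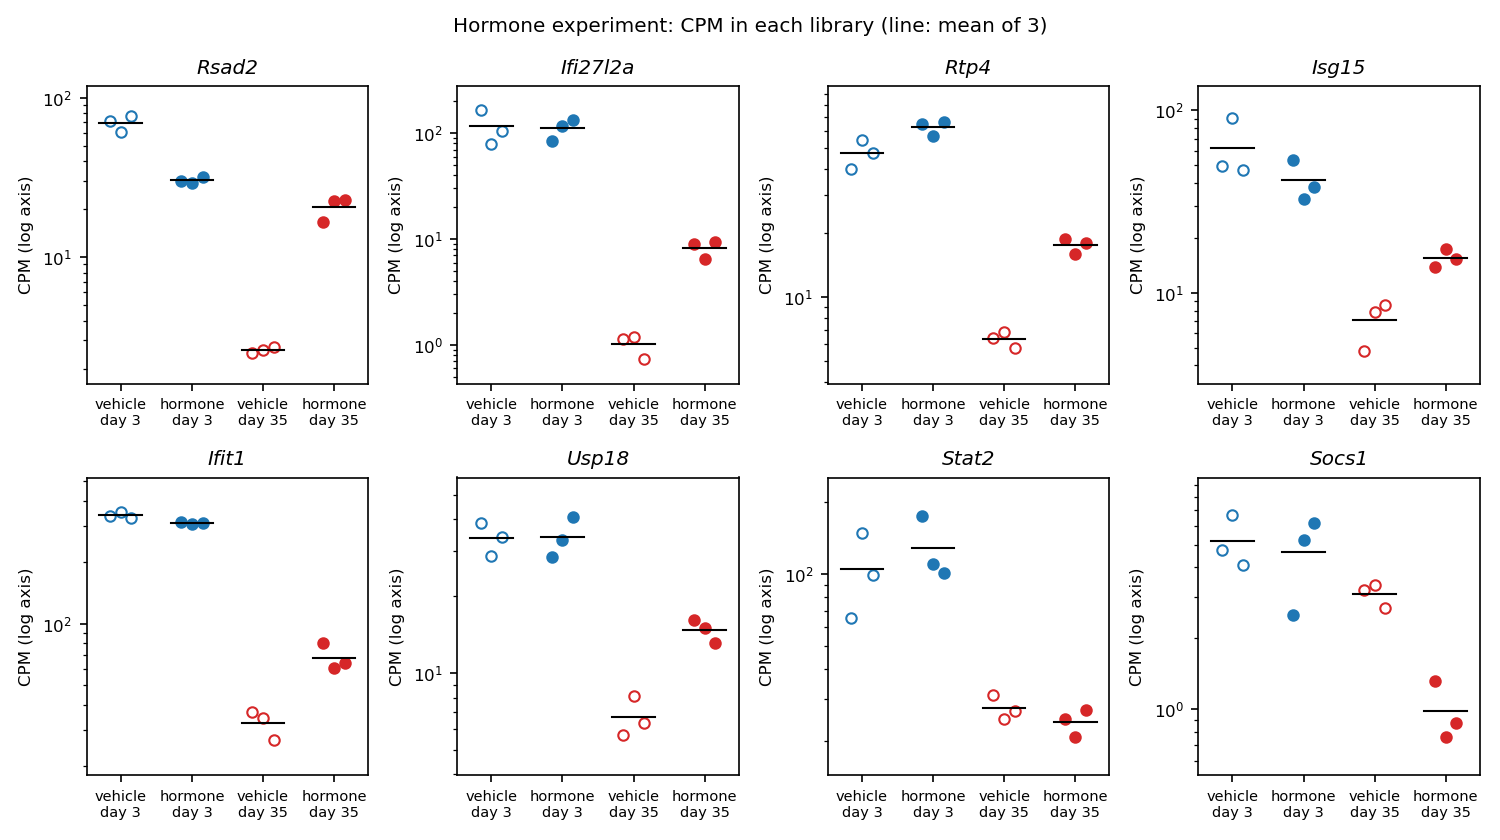
CPM (log axis) of 8 members in each of the 12 libraries of the hormone experiment, vehicle as open and hormone as filled circles, blue for day 3 and red for day 35, with a line at the mean of 3. In the top row the day 35 hormone circles lie above the day 35 vehicle circles, Stat2 overlaps, and Socs1 lies lower with hormone.

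The responses at day 3 and day 35 were then compared directly. With edgeR the interaction called 11 members as responding more positively at day 35 than at day 3 and 0 the other way, where 4.14% and 2.94% of all genes were called. The members numbered 21 and 1 at an unadjusted p below 0.05, and 13 and 0 with DESeq2 (5.36% of all genes higher). The median difference was 0.92 for the members and -0.29 for all genes. Rsad2 had opposite called responses, -1.20 at day 3 and 2.99 at day 35, and differed by 4.19 ± 0.24 (adjusted p = 7.8e-08). Ifi27l2a differed by 3.04 ± 0.40 (adjusted p = 0.000194), having 164, 78.1 and 106 CPM with vehicle and 84.9, 116 and 133 CPM with hormone at day 3. Isg15 (log2 change 1.72 ± 0.39, adjusted p = 0.0138), Oas1a (log2 change 1.49 ± 0.30, adjusted p = 0.00727) and Oasl2 (log2 change 1.26 ± 0.31, adjusted p = 0.0243) followed. The other 6 were Ifit1 (1.18), Usp18 (1.12), Rtp4 (1.05), Ifit3 (0.98), Bst2 (0.92) and Parp9 (0.80). Bst2 and Parp9 were called at neither day alone. Ddx58 and Eif2ak2, raised at day 35, had no called difference (log2 change 0.50 ± 0.21, adjusted p = 0.166 and log2 change 0.33 ± 0.21, adjusted p = 0.357), nor had Socs1 (log2 change -1.49 ± 0.53, adjusted p = 0.106).

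Each of the 11 members raised at day 35 was still lower there with hormone than in any day 3 library of either treatment. Rsad2 had 69.8 ± 7.81 CPM (SD) in vehicle cells at day 3, 30.4 ± 1.12 with hormone at day 3, 20.7 ± 3.55 with hormone at day 35 and 2.61 ± 0.127 with vehicle at day 35. The call of Bst2 was lost in 6 of 12 omissions (adjusted p 0.0508 to 0.115). Oasl2 lost its call without hormone day 3 replicate 2 or 3 (0.067 and 0.0665), and Usp18 without hormone day 3 replicate 1 or 2 (0.0562 and 0.0553). With library totals in place of TMM scaling, 5 members were called higher and 1 lower, and of all genes 2.4% and 7.38%, the reverse of the balance under TMM scaling.

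**Figure D5:**
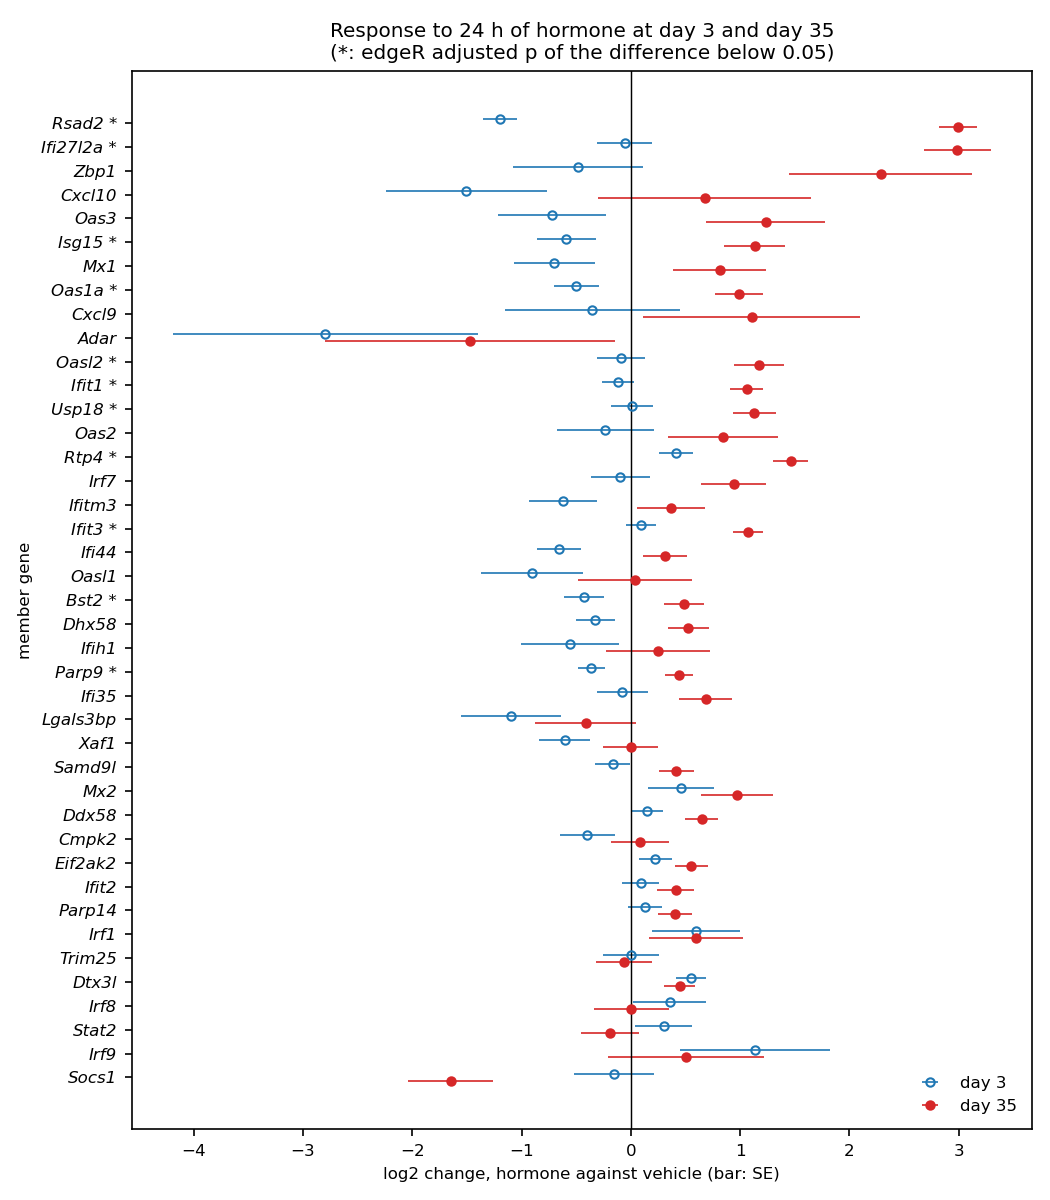
Log2 change with hormone against vehicle (horizontal axis, bars SE) of each of the 41 members (rows, ordered by the difference) at day 3 (open blue) and day 35 (filled red), with an asterisk where edgeR's adjusted p of the difference was below 0.05. Rsad2 has the widest gap, from -1.20 to 2.99, and Socs1 is the lowest row.

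Of 16 tested genes of receptors and signalling, edgeR called 2 higher and 3 lower with hormone at day 3. At day 35 it called 1 higher and 1 lower. Of all genes, 11.4% and 9.09% were called at day 3 and 2.41% and 2.14% at day 35. Ifnar2, the second chain of the type I receptor, rose with hormone at both days, from 17, 8.57 and 9.61 to 22.7, 30.0 and 28.2 CPM at day 3 (log2 change 1.21 ± 0.23, adjusted p = 0.00252) and from 13.6, 17.1 and 13.2 to 65.7, 67.2 and 67.7 CPM at day 35 (log2 change 2.19 ± 0.23, adjusted p = 3.2e-05). The difference between these responses was not called (log2 change 0.99 ± 0.32, adjusted p = 0.0743). Ifnar1 had 191, 163 and 168 CPM with vehicle and 176, 157 and 179.7 CPM with hormone at day 35 (log2 change -0.03 ± 0.12, adjusted p = 0.956). Ifngr1 fell at day 35, from 63.9, 75.9 and 82.3 to 49.8, 47.9 and 49.1 CPM (log2 change -0.60 ± 0.15, adjusted p = 0.0308). Of the 12 tested genes of class I antigen presentation, 11 were called lower in vehicle cells at day 35 than at day 3 (14.5% of all genes). With hormone at day 35, 0 of the 12 were called (1 higher and 0 lower at an unadjusted p below 0.05). At day 3 the hormone lowered 2 of them, H2-K1 (-0.45) and Erap1 (-0.55). Of 4 tested interferon genes, edgeR called 1 higher with hormone at day 3 and 0 at day 35. Ifnb1 was at most 0.527 CPM in any library. At day 3 Ifnk had 0 CPM with vehicle and 0.198 to 1.24 CPM with hormone, and Ifne 0 to 0.0732 and 0.388 to 0.651 CPM. Olfactory receptor reads were also higher in those hormone libraries, and their part in this was not tested.

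In vehicle cells 4 of the 16 genes of receptors and signalling were called higher at day 35 than at day 3 and 5 lower. Of all genes, 15.5% were called higher and 14.5% lower. Ifnar1 went from 130.4, 139 and 134 CPM at day 3 to 191, 163 and 168 CPM at day 35 (log2 change 0.37 ± 0.12, adjusted p = 0.0343), where the RPKM of untreated cells had fallen. Ifngr1 rose from 35.7, 34 and 36.4 to 63.9, 75.9 and 82.3 CPM (log2 change 1.07 ± 0.15, adjusted p = 6.1e-05). The myeloid markers summed to 11.3 to 14.1 CPM in vehicle cells at day 3 and 27.2 to 31.4 CPM at day 35, and to 32.6 to 40.9 CPM with hormone at day 35, most of it Lyz2 at day 35. With hormone at day 3 they summed to 8.88 to 12.4 CPM. The B and T cell markers summed to 0 to 0.439 CPM with vehicle and 2.55 to 4.56 CPM with hormone at day 3, and the endothelial markers to 2.2 to 5.48 and 6.37 to 7.58 CPM. Ptprc, the marker of all leukocytes, and Itgam were 0 in vehicle and hormone libraries of both days. The part of these markers in the results was not tested.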

How the data were processed

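Ribosome-depleted total RNA of 18 untreated and 12 hormone-experiment libraries was sequenced. The untreated files hold RPKM and the hormone files read counts, each as deposited by the authors, who aligned reads with TopHat to mm9, per the submitters' processing notes; how reads were assigned to genes is not given in the sources used here. RPKM of a symbol with several rows was taken from the row with the highest mean, and counts were summed over rows. Genes reaching 1 RPKM in 3 or more libraries were tested with limma 3.58.1 (trend) on log2(RPKM + 0.5) over 18 libraries, which understates changes of low genes. Counts were tested with edgeR 4.0.16 (filterByExpr, TMM scaling, quasi-likelihood F test) over 12 libraries, in R 4.3.3. P-values were adjusted by Benjamini-Hochberg over all genes tested, 9933 and 20055. DESeq2 1.42.0, other scalings, filters and pseudocounts, a background subtraction, the sequencing run and the omission of each library were alternatives. The members, role groups and pathway lists were chosen with earlier results of these data known. Values per library are given for the 3 members of each role group highest at day 3, the 5 largest called changes in each direction, called members that went against most, and Irf1, Irf7, Irf9, Stat2, Isg15, Usp18, Cxcl9, Cxcl10, Rsad2, Oas1a, Mx1, Ifitm3, Adar and Socs1. The submitters call the libraries of a group biological triplicates. Same-numbered libraries deviated together on days 3 to 28 (correlations of 0.16 to 0.58), which is given from the data, since the labels name no shared source. The main fits held no pairing, and the replicate block was an alternative. Only replicate 1, which also shared a sequencing run, stood apart in each such comparison: for replicate 2 a differently numbered library correlated more in most of them (day 14 with day 21, 0.16 against 0.35). They did not do so in each pair with day 35 (0.06 to 0.48) or in the hormone experiment (-0.49 to 0.49).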

Additional observations from a re-analysis of the deposited data

Results flagged for a closer look

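The response to the hormone differed between day 3 and day 35 in 11 members by the interaction test of edgeR (adjusted p below 0.05), each in the direction of a higher response at day 35. Of all genes, 4.14% were called in that direction and 2.94% in the other. In every omission of a library, 8 of the 11 kept their call. Library totals in place of TMM scaling called fewer of the members and reversed the all-gene balance, to 2.4% and 7.38%. The log2 differences were 4.19 for Rsad2, 3.04 for Ifi27l2a, 1.72 for Isg15, 1.49 for Oas1a, 1.26 for Oasl2, 1.18 for Ifit1, 1.12 for Usp18, 1.05 for Rtp4, 0.98 for Ifit3, 0.92 for Bst2 and 0.80 for Parp9. Rsad2 was the 1 member called at both days, lower at day 3 and higher at day 35.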

How the results depend on the processing

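Under the alternatives run, 0 of the named values reversed. At day 7 the number of members called higher was 17 with a fit of the 2 days compared alone, and 1 was called lower without the filter. That fit called 2613 of all 9933 genes higher, and the main fit 1574. Without the filter 1342 of 18732 genes were called lower, and in the main fit 977 of 9933. At day 14 the number of members called higher was 1 with a pseudocount of 1, 3 after centring and 2 after quantile normalization. It was 1 with RPKM rescaled to rows other than rRNA, 2 with the replicate block and 2 in the fit of 2 days. The number called lower was 2 with a pseudocount of 0.1, 8 after centring and 8 after quantile normalization. It was 9 after rescaling and 3 with the run as a covariate. Over all genes these settings, in that order, called 1472, 2219, 2063, 1802, 1731 and 1532 higher (1430 in the main fit). They called 1245, 1857, 1963, 2045 and 1280 lower (1524 in the main fit). From day 7 to 14 the number of members lower was 2 with a pseudocount of 0.1, 3 without the filter and 3 after rescaling. In the fit of 2 days it was 2. From day 14 to 21 it was 2 with a pseudocount of 0.1, 3 without the filter, 13 after rescaling, 13 with the run, 15 with the replicate block and 0 in the fit of 2 days. From day 28 to 35 it was 12 and 2 with pseudocounts of 0.1 and 1, 1 without the filter, and 0 after centring or quantile normalization. It was 2 after rescaling, 10 with the replicate block and 0 in the fit of 2 days. With the run as a covariate day 35 rests on replicate 1, so no count is given. The all-gene numbers lower, in the same order, were 162, 240, 287 and 147 from day 7 to 14 (main fit 242). They were 14, 39, 128, 106, 90 and 4 from day 14 to 21 (main fit 36). From day 28 to 35 they were 1241, 581, 495, 203, 193, 592, 1471 and 7 (main fit 778). Rescaling left 9791 genes tested. With hormone at day 3, members higher numbered 2 with DESeq2 or its size factors, 7 with library totals and 4 with the background subtracted. Members lower numbered 1 with size factors, totals, the background subtracted or the replicate block, and 6 without the filter. All genes called higher numbered 4588, 2283, 4228 and 972 in that order (main fit 2278). Those called lower numbered 1519, 594, 966, 1548 and 2666 (main fit 1824). At day 35 DESeq2 called 18 members higher, and the background subtraction 0 lower. For all genes these numbers were 841 and 369 (main fit 484 and 430). Genes tested were 20055, but 24230 without the filter, 11561 with the background subtracted, and 24118 (day 3) or 15242 (day 35) with DESeq2. With library totals the interaction called 5 members higher and 1 lower, where 2.4% and 7.38% of all genes were called. In the hormone experiment same-numbered libraries did not deviate together. With the block in edgeR, the calls of Ifi44 at day 3 (adjusted p = 0.0504), of Eif2ak2 at day 35 (adjusted p = 0.0518) and of Bst2 in the interaction (adjusted p = 0.0736) ended. The cause of these changes was not tested.

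Leaving out 1 library at a time gave 4 to 7 members higher at day 7, 0 to 2 higher and 3 to 4 lower at day 14, 14 to 21 lower at day 21, 25 to 31 at day 28 and 32 at day 35. The steps gave 1 to 3 (day 7 to 14), 1 to 8 (day 14 to 21), 0 to 2 (day 21 to 28) and 0 to 15 (day 28 to 35). Vehicle day 35 gave 37 to 38 lower, hormone at day 3 0 to 1 higher and 1 to 6 lower, hormone at day 35 8 to 12 higher and 0 to 1 lower, and the interaction 8 to 16 higher. All-gene numbers are not given for the omissions, here or above. How far these ranges follow shifts of whole libraries was not tested. Depth limits the members below 1 RPKM or 1 CPM, and the 5 members with several rows in the count files.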
